A study of Mus musculus with 8 samples.

Results

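The nuclear genes for the subunits of respiratory complex I were followed in the left ventricle of mice with and without pressure overload on a pair of diets. Members were the protein-coding genes whose symbol begins with Nduf followed by a, ab, b, c, s or v and a digit, that reached a deposited value of 1 in 2 or more libraries. The assembly factors named Ndufaf were left out. The rule found 38 of the 49671 genes in the table, all 38 matches of the name passed the filter on low values, and all are among the 16432 genes that were tested. They comprise 7 core subunits, 10 accessory subunits of the matrix arm, 19 accessory subunits of the membrane arm, and Ndufa4 and Ndufa4l2, which carry the family name but are not structural subunits of complex I. Ndufb1, also an accessory subunit of the membrane arm, was not among the matches, so the set is not complete.

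Polyadenylated RNA of the left ventricle was sequenced from male C57BL/6N mice that were 8 weeks old at the start, and tissue was taken 4 weeks after the operation. In the TAC SFA-EAA group the aorta was narrowed by transverse constriction (TAC), against which the left ventricle has to pump at a raised pressure, and the mice ate a diet in which free essential amino acids stood in for 93.5% of the casein. The TAC SFA group had the same constriction on the low fat diet SFA. The sham SFA-EAA and sham SFA groups had the operation without constriction, on the diets that their names give. All mice were of 1 strain and sex, and the labels name no transgene or engineered allele in any group. Each of the 4 groups has 2 libraries, and the labels leave unsaid whether both are separate mice, so the p-values below reflect only how these libraries vary, which may be technical.

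Complex I, or NADH:ubiquinone oxidoreductase, takes electrons from NADH, passes them along a chain of iron-sulphur clusters in the matrix arm to ubiquinone, and uses the energy released to pump protons through the membrane arm. The core subunits of the matrix arm that bind the flavin, the clusters and the quinone are encoded in the nucleus, and the core subunits of the membrane arm are encoded by mitochondrial DNA. The accessory subunits surround this core and are needed for its assembly and stability. In the heart, which relies on oxidative phosphorylation, the complex is abundant and its genes are among the well-expressed nuclear genes of cardiomyocytes.

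Promoters of 33 of the 38 genes were found in the RefSeq promoter table (build GRCm38.p6), as 300 bases from 250 before to 50 after the start of the gene. They were searched on both strands for the letters of motifs linked to mitochondrial genes. The YY1 letters AAGATGGC stood in 7 of the 33 (Ndufa3, Ndufa9, Ndufb8, Ndufc1, Ndufs4, Ndufs6 and Ndufs7), which is 21.2%, against 3.19% of all 27025 genes with a promoter in the table. In these 7 genes the letters lay on the strand of the gene and after its start, with first bases at positions 23 to 39. The NRF1 core GCATGCGC stood in 3 of them (Ndufa11, Ndufa6 and Ndufa8) or 9.09%, against 3.05% of all genes. The ERR letters AAGGTCA stood in 3 (Ndufb2, Ndufb4 and Ndufs5) or 9.09%, against 5.38%, and the GABP letters CCGGAAGT in 1 (Ndufs3) or 3.03%, against 4.31%. The E-box CACGTG, searched beside them, stood in 2 (Ndufa7 and Ndufv1) or 6.06%, against 8.09%. None of the 33 promoters held more than 1 of the 5 motifs, the NRF1 core matched on both strands of Ndufa11 in stretches that overlap, and a match is a stretch of letters and not a measured binding site. The following 4 windows, from 100 bases before to 30 after the start, show 1 promoter for each of the 4 motifs linked to mitochondrial genes, all of them from genes whose values are given below. Each is written 5′ to 3′ on the strand of the gene, with the matched letters in capitals.
Ndufa3 (chr7:3617273-3617402, plus strand, YY1): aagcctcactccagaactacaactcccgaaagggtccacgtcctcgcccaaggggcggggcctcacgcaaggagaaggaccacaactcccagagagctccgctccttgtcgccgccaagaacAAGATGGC
Ndufa6 (chr15:82354262-82354391, minus strand, NRF1): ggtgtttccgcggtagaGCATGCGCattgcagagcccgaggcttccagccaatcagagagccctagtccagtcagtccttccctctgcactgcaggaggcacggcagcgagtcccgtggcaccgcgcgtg
Ndufb4 (chr16:37654339-37654468, minus strand, ERR): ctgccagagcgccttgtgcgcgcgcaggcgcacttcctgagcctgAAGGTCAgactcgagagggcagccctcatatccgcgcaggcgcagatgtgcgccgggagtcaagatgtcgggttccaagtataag
Ndufs3 (chr2:90904692-90904821, minus strand, GABP in reverse complement): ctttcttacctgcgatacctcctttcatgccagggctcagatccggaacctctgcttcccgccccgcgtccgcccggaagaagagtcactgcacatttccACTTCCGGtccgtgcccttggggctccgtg

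The deposited values are reads per gene that the authors normalized between libraries, and they summed to 5136441 to 6298743 per library. The ventricular marker Myl2 lay between 46194 and 65971 in all 8 libraries. The number of genes with a value of 1 or more was 14202 to 15844. The share of summed values taken by transcripts of mitochondrial DNA was 33.6% to 39.5% on the SFA-EAA diet and 22.1% to 30.3% on the SFA diet. Myl7, a light chain of atrial myosin, had 322 in TAC SFA replicate 2 and 621 in sham SFA replicate 1, and 1.28 to 43.0 elsewhere. The libraries also differed in how a gene's value depended on the GC content of its transcript, and since subunit genes span 42.0% to 60.4% GC, the counts below are given as deposited and after a correction that removes each library's own trend with GC content. The rank correlation of the 38 genes' deviations from their own means with GC content was 0.48 and -0.69 in the TAC SFA-EAA libraries. It was 0.60 and 0.65 in the TAC SFA libraries, -0.74 and -0.54 in the sham SFA-EAA libraries, and 0.75 and 0.72 in the sham SFA libraries. These are descriptions over 38 genes that share their library, and the 2 TAC SFA-EAA libraries stand on opposite sides. After the correction the same correlations lay between -0.21 and 0.14.

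**Figure D1:**
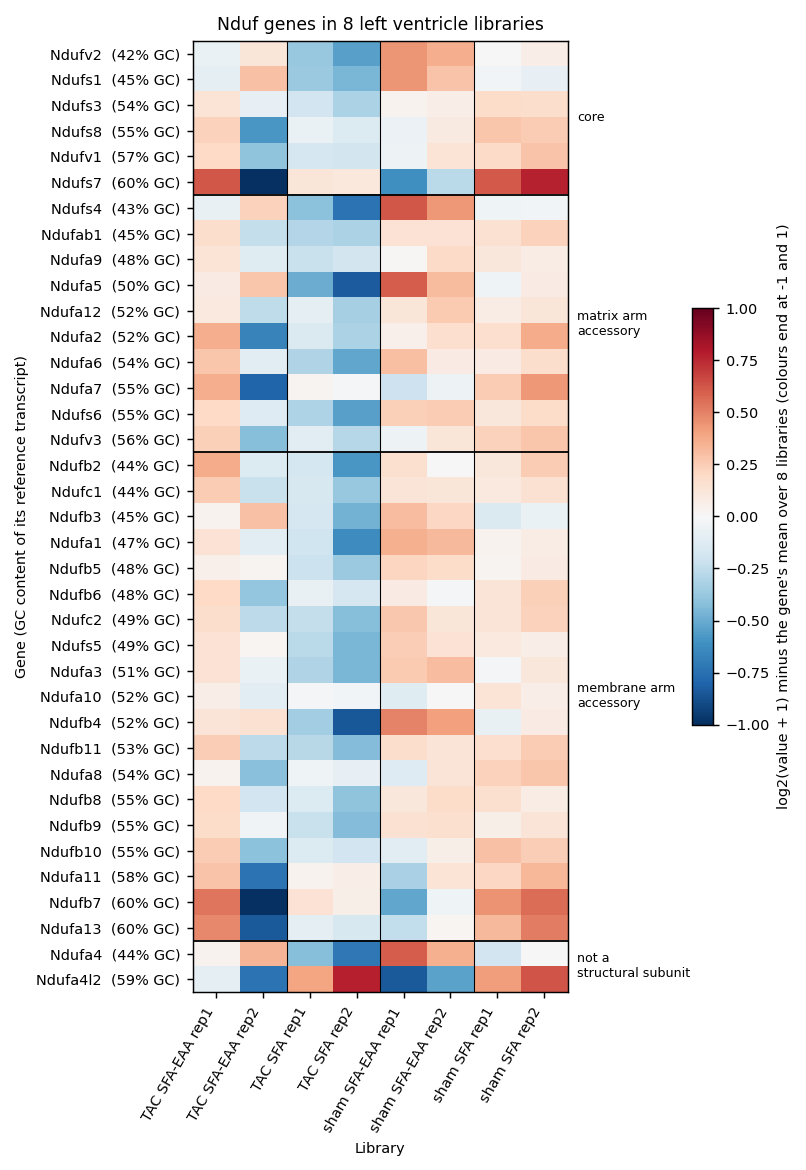
Each row is 1 of 37 genes, ordered within its role by the GC content of its transcript, and each column is 1 library. Colour gives log2(value + 1) minus the gene's mean over the 8 libraries, so the 2 TAC SFA columns are mostly blue, while TAC SFA-EAA replicate 2 and both sham SFA-EAA libraries change from red to blue with rising GC content.

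Subunit genes spanned a wide range of levels per length of transcript, and the 3 structural roles had similar medians. On the scale of deposited value per kilobase of the reference transcript, the median over 8 libraries lay between 152 and 4984 for the 36 structural subunits, with a median gene at 1663. The core, matrix arm and membrane arm groups had medians of 1690, 1727 and 1636 on that scale. Ndufb9, an accessory subunit of the membrane arm, was highest among structural subunits at 4984 per kilobase, followed by Ndufb8 at 4138. The lowest were Ndufb2 at 152, Ndufb4 at 326 and Ndufab1, the mitochondrial acyl carrier protein, at 395 per kilobase. The order depends on the transcript used for the length. The reference transcript of Ndufb2 is 4371 bases long and that of Ndufab1 3479. On the gene lengths that the authors deposited Ndufb8 stood at 894 per kilobase, in place 23 of 38. Ndufb9 stayed highest among structural subunits on that scale at 5389.9, and Ndufb2 lowest at 118. Ndufa4, a subunit of cytochrome c oxidase, stood above all structural subunits at 8958 per kilobase of reference transcript. Its paralog Ndufa4l2, a gene known for its induction by hypoxia, stood below them at 64.9. On the deposited gene lengths Ndufa4 stood at 3957, below Ndufb9, and Ndufa4l2 stayed lowest at 63.2.

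**Figure D2:**
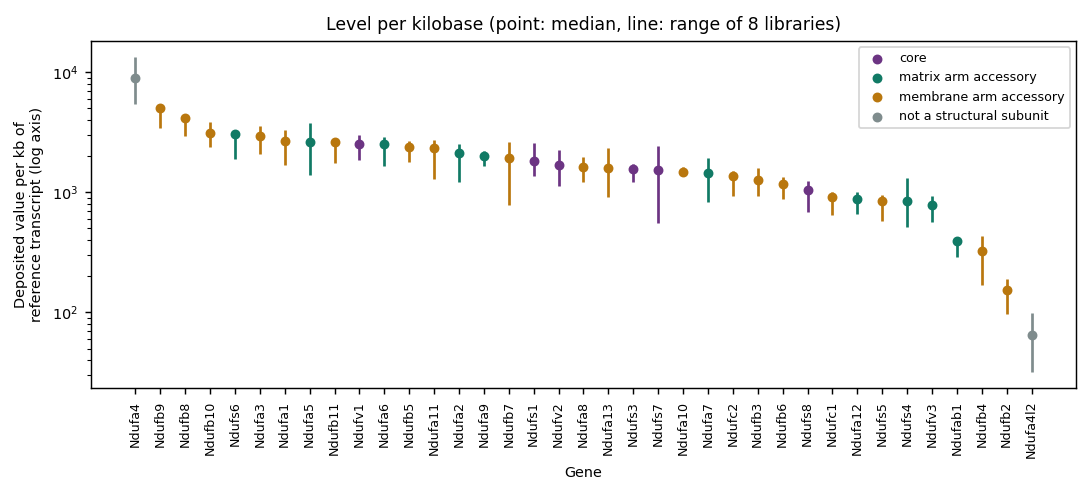
Points give the median over 8 libraries of the deposited value per kilobase of reference transcript on a log axis, and lines the lowest and highest library. The 37 genes drawn are coloured by role. Ndufa4 is at the top at 8958 and Ndufa4l2 at the bottom at 64.9, with the 3 structural roles mixed between them.

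Under the SFA diet, all members but Ndufa4l2 had lower values in both TAC than in both sham hearts. In 37 of the 38 genes both TAC SFA libraries lay below both sham SFA libraries, as did those of 23.1% of all genes tested, and 0 lay above, against 24.3% of all genes. The log2 fold change was negative in these 37 genes, against 47.7% of all genes, with a median of -0.43 over the 38 and 0.01 over all genes. Limma called 0 of the 38 at an adjusted p under 0.05, against 0.414% of all genes called lower and 0.834% called higher. An unadjusted p under 0.05 was found for 24 of the 38, all 24 lower in TAC, beside 2197 of all 16432 genes in either direction. With GC-corrected values limma called 20 of the 38 lower, against 3.11% of all genes, and 0 higher, against 2.54%. Shares over all genes include genes of low value, and the members were not compared with genes of like level. The median fold change was then -0.45. Without the 2 libraries with the highest Myl7 the median as deposited was -0.38. The GC-corrected values were not fitted without these 2 libraries together.

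The core subunits showed this separation. Ndufv2, which carries an iron-sulphur cluster beside the flavin (ENSMUSG00000024099, chr17:66078795-66101559, minus strand), had deposited values of 2684 and 3056 in TAC SFA-EAA, 2164 and 1926 in TAC SFA, 3805 and 3608 in sham SFA-EAA, and 2803 and 2933 in sham SFA hearts. Ndufs1, the largest subunit of the electron entry module, had 4715 and 6122 in TAC SFA-EAA, 3875 and 3645 in TAC SFA, 6798 and 6113 in sham SFA-EAA, and 4924 and 4723 in sham SFA hearts. In both genes the TAC libraries lay below the sham libraries of the SFA diet, and the TAC SFA pair was the lowest of the 4 groups. Ndufv1, which binds NADH and the flavin, had 4677 and 3072 in TAC SFA-EAA, 3616 and 3588 in TAC SFA, 3920.4 and 4484 in sham SFA-EAA, and 4637 and 4947 in sham SFA hearts. Ndufs3, a subunit of the quinone module, had 1732 and 1491 in TAC SFA-EAA, 1376 and 1266 in TAC SFA, 1611 and 1645 in sham SFA-EAA, and 1784 and 1776 in sham SFA hearts. Both genes were lower in both TAC SFA libraries than in both sham SFA libraries, while TAC SFA-EAA replicate 1 reached the sham range. Ndufs7, which holds the last cluster of the chain, had 2135 and 545 in TAC SFA-EAA, 1515 and 1497 in TAC SFA, 907 and 1155 in sham SFA-EAA, and 2123 and 2367 in sham SFA hearts. Ndufs8, which holds a pair of clusters before it, had 1209.6 and 689 in TAC SFA-EAA, 986 and 942 in TAC SFA, 991 and 1098 in sham SFA-EAA, and 1251 and 1235 in sham SFA hearts. Both had their lowest value in TAC SFA-EAA replicate 2 and a high one in replicate 1 of the same group, so that this group spans nearly the whole range.

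As log2 fold changes between TAC SFA and sham SFA, the core subunits ranged from -0.57 to -0.36, with Ndufv2 at -0.49 ± 0.12 (SE) and a limma adjusted p of 0.0958 as deposited. Core subunits also fell with GC-corrected values. Ndufv2 had -0.50 ± 0.09 (limma adjusted p = 0.00778), Ndufs3 -0.46 ± 0.09 (adjusted p = 0.0113), Ndufv1 -0.44 ± 0.09 (adjusted p = 0.0144) and Ndufs1 -0.38 ± 0.09 (adjusted p = 0.0321). Ndufs7 with -0.62 ± 0.25 and Ndufs8 with -0.39 ± 0.14 did not pass.

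Among the matrix arm accessory subunits, Ndufa5, which sits by the quinone module, had the smallest p-value of all members as deposited. Its gene (ENSMUSG00000023089, chr6:24518666-24528013, minus strand) had 2291 and 2626 in TAC SFA-EAA, 1537 and 1219.7 in TAC SFA, 3301 and 2695 in sham SFA-EAA, and 2105 and 2296 in sham SFA hearts. The TAC SFA pair lay below the other 6 libraries, and its log2 fold change against sham SFA was -0.68 ± 0.15, a ratio of 0.623 (limma adjusted p = 0.0759, and 0.0101 with GC-corrected values). Ndufs6, a zinc-binding subunit of the electron entry module, had 1812 and 1442 in TAC SFA-EAA, 1275 and 1085 in TAC SFA, 1866 and 1879 in sham SFA-EAA, and 1705 and 1793 in sham SFA hearts. Ndufs4, whose loss in mice causes a Leigh-like encephalopathy (ENSMUSG00000021764, chr13:114287795-114388094, minus strand), had 1383 and 1709.5 in TAC SFA-EAA, 1096 and 875 in TAC SFA, 2248 and 1972 in sham SFA-EAA, and 1418 and 1433 in sham SFA hearts. In both genes the TAC SFA libraries were the lowest 2 of the 8. With GC-corrected values Ndufs6 fell by 0.59 and Ndufs4 by 0.56 on the log2 scale (limma adjusted p = 0.00796 and 0.00731). Ndufa6, a protein of the LYR family, had 1693 and 1296 in TAC SFA-EAA, 1134 and 970.2 in TAC SFA, 1713 and 1478 in sham SFA-EAA, and 1474 and 1576 in sham SFA hearts. Its TAC SFA libraries were the lowest 2 of the 8, and with GC-corrected values it had -0.57 ± 0.12 (limma adjusted p = 0.0182). In this group all 10 fold changes were negative after the correction and 5 were called lower, the other 3 being Ndufa5, Ndufa6 and Ndufv3. The 10 fold changes as deposited ran from -0.68 to -0.30.

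Of the 19 membrane arm accessory subunits, 9 were called lower with GC-corrected values (Ndufa3, Ndufa13, Ndufb4, Ndufb5, Ndufb9, Ndufb10, Ndufb11, Ndufc2 and Ndufs5). All 19 had negative fold changes, both after the correction and as deposited, where they lay between -0.60 and -0.12. Ndufb4, a subunit of the distal membrane arm, had 321 and 326 in TAC SFA-EAA, 231 and 163 in TAC SFA, 416 and 392 in sham SFA-EAA, and 279.6 and 312 in sham SFA hearts. Ndufb11, an X-linked subunit of the same arm, had 2532 and 1785 in TAC SFA-EAA, 1764 and 1582 in TAC SFA, 2424 and 2340.3 in sham SFA-EAA, and 2409.8 and 2553 in sham SFA hearts. Ndufa3, a small subunit of the proximal membrane arm, had 1623 and 1404 in TAC SFA-EAA, 1194 and 1069.8 in TAC SFA, 1766 and 1819.6 in sham SFA-EAA, and 1462 and 1591 in sham SFA hearts. In these 3 genes the TAC SFA libraries lay below all 6 others. With GC-corrected values the log2 fold changes were -0.47 ± 0.10 for Ndufa3 (limma adjusted p = 0.0171), and -0.65 ± 0.16 for Ndufb4 and -0.61 ± 0.12 for Ndufb11 (limma adjusted p = 0.0344 and 0.0118). Ndufa10, which resembles nucleoside kinases, had the smallest fold change among structural subunits, with 3139.7 and 2765 in TAC SFA-EAA, 2974 and 2931 in TAC SFA, 2752 and 3005 in sham SFA-EAA, and 3284 and 3129.6 in sham SFA hearts, and a log2 fold change of -0.12 ± 0.11 (adjusted p = 0.743). The 20 calls with GC-corrected values rest on each library of the SFA groups but TAC SFA replicate 1. Limma called 0 when TAC SFA replicate 2 or either sham SFA library was left out, 11 without either sham SFA-EAA library and 29 without either TAC SFA-EAA library, while the median stayed between -0.56 and -0.35 over all 8 such fits.

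**Figure D3:**
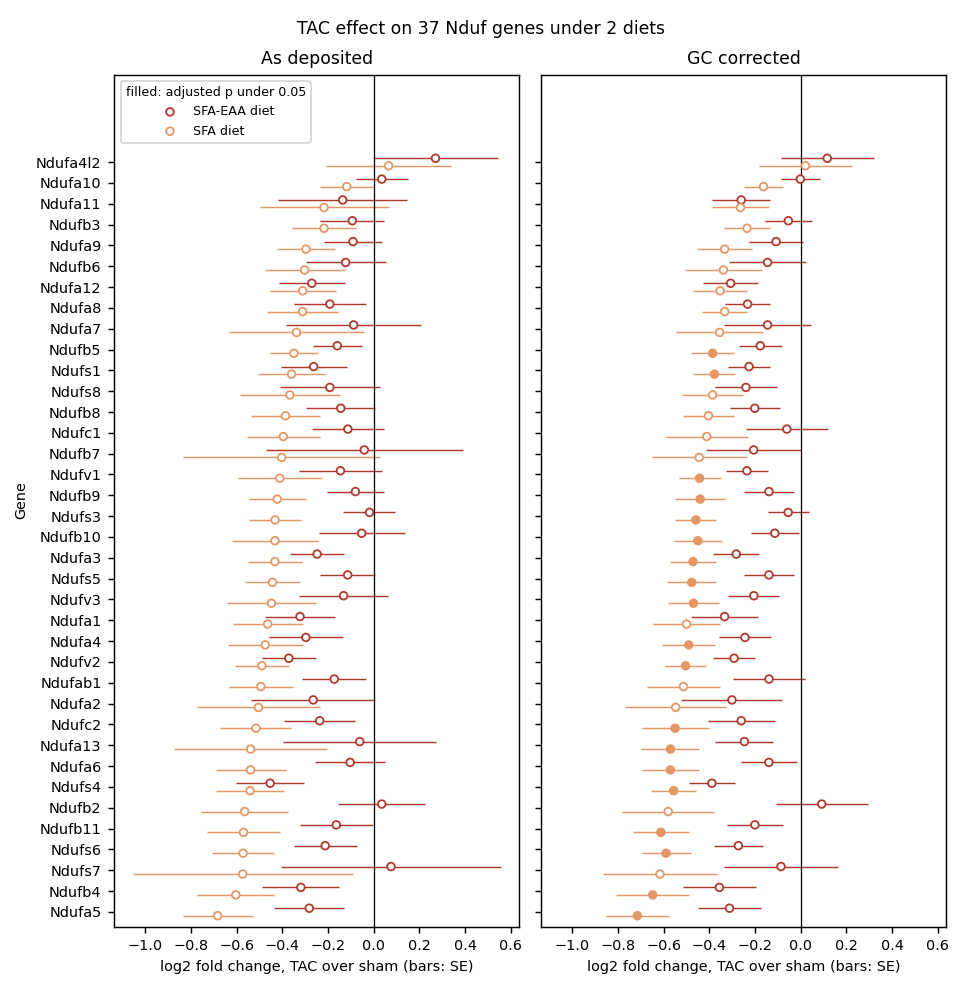
Points are log2 fold changes of TAC over sham for each gene and diet, with bars of 1 SE, as deposited on the left and GC corrected on the right, and filled points passed limma at an adjusted p under 0.05. Of the 37 genes drawn, 36 lie left of 0 under SFA and 19 are filled after the correction, while under SFA-EAA 33 lie left of 0 as deposited and 0 are filled on either side.

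Markers of other cells moved in the same comparison. The summed values of 10 fibroblast markers were 11223 and 16036 in TAC SFA hearts, against 6355 and 5350 in sham SFA hearts, with 4 of the 10 called higher by limma as deposited, 7 after the GC correction, and none at 0. The summed values of 10 cardiomyocyte markers were 391006 and 409051 in TAC SFA hearts, against 472046 and 475328 in sham SFA hearts, with 9 of 10 fold changes negative, a median of -0.30, 0 called as deposited, 1 called lower after the GC correction, and none at 0. The 4 atrial markers, with the natriuretic peptide Nppa among them, summed to 10389 and 21485 in TAC SFA hearts, against 2687 and 1105 in sham SFA hearts, with 1 of 4 called higher, the other 3 fold changes negative, a median of -0.30 and none at 0. Their part in the lower subunit values was not tested. In bulk tissue, fewer cardiomyocytes and less RNA of a gene per cardiomyocyte cannot be told apart.

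Under the SFA-EAA diet the difference between TAC and sham hearts was smaller and depended on which TAC library was used. In 11 of the 38 genes both TAC libraries lay below both sham libraries, against 18% of all genes, and 0 lay above, against 18.5%. The fold change was negative in 34 of the 38, against 49.8% of all genes, with a median of -0.14. Limma called 0 of the 38 as deposited and 0 with GC-corrected values, where the median was -0.21. An unadjusted p under 0.05 was found for 2 of the 38 as deposited, beside 1408 of all 16432 genes. With GC-corrected values it was found for 12 of the 38, beside 1949 of all genes. Of all genes 0% were called lower and 0.0122% higher as deposited, and 0.0791% lower and 0.231% higher with GC-corrected values.

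The 2 TAC SFA-EAA libraries lay on opposite sides of the trend with GC content, and genes of high GC content differed most between them. Ndufb7, a membrane arm subunit at 59.7% GC, had 1621 and 492 in TAC SFA-EAA hearts, against 778 and 1085 in sham SFA-EAA hearts. The summed values of the 38 genes made up 1.92% and 1.73% of all nuclear-encoded values in TAC SFA-EAA hearts and 1.57% and 1.41% in TAC SFA hearts, against 2.06% and 2.02% in sham SFA-EAA hearts and 1.89% and 1.93% in sham SFA hearts. Thus TAC SFA-EAA replicate 1 was close to the sham SFA libraries in this share, replicate 2 was lower, and both stood above the 2 TAC SFA libraries. Without TAC SFA-EAA replicate 1 the median log2 fold change against sham SFA-EAA was -0.35, and without replicate 2 it was 0.05. The core subunit Ndufv2 had the smallest p-value, with 2684 and 3056 in TAC SFA-EAA hearts, against 3805 and 3608 in sham SFA-EAA hearts, and a log2 fold change of -0.37 ± 0.12 (limma adjusted p = 0.451). Ndufs4 followed with 1383 and 1709.5 in TAC SFA-EAA hearts, against 2248 and 1972 in sham SFA-EAA hearts, and -0.45 ± 0.15 (adjusted p = 0.478). Both genes had all TAC values below all sham values and neither passed the test. Ndufs3 lay at -0.02 ± 0.11 and Ndufs7 at 0.08 ± 0.48, and their TAC and sham libraries overlapped.

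The difference between the diets in the TAC effect was tested directly as an interaction. It uses the same libraries as the TAC comparisons above, and the 38 genes share them, so a common sign is not separate support. All 38 genes had a positive interaction, against 50.1% of all genes, meaning a TAC effect that was less negative, or for Ndufa4l2 more positive, on SFA-EAA than on SFA, with a median of 0.25 on the log2 scale against 0.00 over all genes. Limma called 0 of the 38, and 0 of all genes, as deposited. An unadjusted p under 0.05 was found for 902 of all 16432 genes and for 1 of the 38. That gene was Ndufs3, with an interaction of 0.41 ± 0.16 (limma adjusted p = 0.878). Ndufb2, a small subunit of the membrane arm, had 0.60 ± 0.27 (adjusted p = 0.878) and Ndufs7 had the largest value, 0.65 ± 0.68, with an SE larger than itself (adjusted p = 0.951). With GC-corrected values the median was 0.23 and 0 were called, against 0.00609% of all genes called lower and 0% higher. An unadjusted p under 0.05 was then found for 6 of the 38, beside 1369 of all 16432 genes. The median was 0.07 without TAC SFA-EAA replicate 1 and 0.49 without replicate 2. The interaction of Ndufs7 was -0.34 and that of Ndufa13 -0.18 without replicate 1, against 0.65 and 0.48 with all libraries. A difference between the diets in the TAC effect was not detectable for any member at this number of libraries.

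Averaged over both diets, 37 of the 38 genes had negative fold changes as deposited, against 48.4% of all genes, with a median of -0.28. Of these, 1 subunit gene was called lower. Limma called Ndufv2 (-0.43 ± 0.08 on the log2 scale, a ratio of 0.742, adjusted p = 0.0378), against 0.73% of all genes called lower, and 0 members higher, against 1.38%. The call was lost when any 1 was left out of the 6 libraries outside the TAC SFA-EAA group, and with quantile normalization, scaling to nuclear-encoded genes or no filter on low values. Next were Ndufs4 with -0.50 ± 0.11 (adjusted p = 0.0513) and Ndufa5 with -0.48 ± 0.11 (adjusted p = 0.062). With GC-corrected values limma called 24 of the 38 lower, against 3.67% of all genes, and 0 higher, against 3.15%. These 24 included 6 of 10 matrix arm and 12 of 19 membrane arm subunits as well as Ndufa4, and the median over all 38 was -0.32. Ndufs4 then had -0.47 ± 0.07 (limma adjusted p = 0.00209) and Ndufv2 -0.40 ± 0.06 (adjusted p = 0.00347). The 24 calls were 31 without TAC SFA-EAA replicate 1, 12 without its replicate 2, 24 without TAC SFA replicate 1 and 8 without its replicate 2. Among sham libraries they were 5 without SFA-EAA replicate 1, 6 without its replicate 2, 10 without SFA replicate 1 and 3 without its replicate 2.

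**Figure D4:**
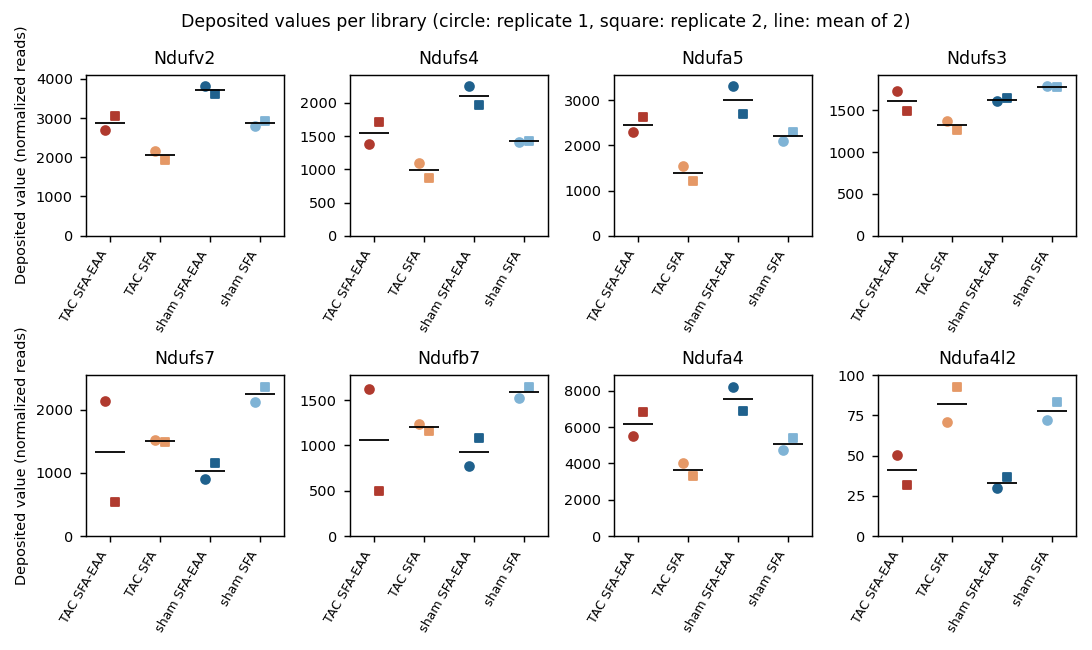
Deposited values per library of 8 named genes, with a circle for replicate 1, a square for replicate 2 and a line at the mean of 2, on axes from 0. Ndufv2, Ndufs4, Ndufa5 and Ndufa4 are lowest in TAC SFA and highest in sham SFA-EAA hearts, the 2 TAC SFA-EAA libraries lie far apart for Ndufs7 and Ndufb7, and Ndufa4l2 is lower on SFA-EAA than on SFA.

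Among hearts with TAC, most subunit genes stood higher on the SFA-EAA than on the SFA diet. This comparison shares the TAC SFA libraries with the TAC comparison above. In 20 of the 38 genes both TAC SFA-EAA libraries lay above both TAC SFA libraries, against 21.7% of all genes, and in 1, Ndufa4l2, both lay below, against 21.1%. The log2 fold change was positive in 29 of the 38, against 47.1% of all genes. Its median was 0.28, against -0.03 over all genes. As deposited the fold change was lower at higher GC content, with a Spearman correlation of -0.68. The 14 genes under 50% GC were all positive, with a median of 0.44. Of the 24 genes at 50% or more, 15 were positive, with a median of 0.09. After the correction these 2 medians were 0.32 and 0.39. Limma called 0 of the 38 as deposited, against 0.0122% of all genes called higher and 0.0365% lower. At an unadjusted p under 0.05, 16 members were higher and 1 lower, beside 2476 of all 16432 genes in either direction. With GC-corrected values limma called 13 of the 38 higher, against 1.58% of all genes, and 0 lower, against 0.949%, and the median was 0.36. Among the 13 were the core subunits Ndufs1, Ndufs3 and Ndufv1, the matrix arm subunits Ndufa5, Ndufa6, Ndufs4 and Ndufs6, the membrane arm subunits Ndufa3, Ndufb4, Ndufb8 and Ndufb9, and Ndufa4. The corrected count was 0 without TAC SFA replicate 2 and 15 without its replicate 1, 4 and 5 without TAC SFA-EAA replicate 1 and 2, and 6 without any 1 sham library.

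Ndufa5 had the smallest p-value as deposited in that comparison, with 2291 and 2626 in TAC SFA-EAA hearts, against 1537 and 1219.7 in TAC SFA hearts, and a log2 fold change of 0.84 ± 0.15 (limma adjusted p = 0.0829, and 0.00806 with GC-corrected values). Ndufs6 had the smallest with GC-corrected values, with 1812 and 1442 in TAC SFA-EAA hearts, against 1275 and 1085 in TAC SFA hearts, and a corrected fold change of 0.71 ± 0.11 (adjusted p = 0.00741). Ndufb4 had 321 and 326 in TAC SFA-EAA hearts, against 231 and 163 in TAC SFA hearts. In all 3 genes both SFA-EAA libraries lay above both SFA libraries. Beside this, the 10 fibroblast markers summed to 5641 and 7286 in TAC SFA-EAA hearts, against 11223 and 16036 in TAC SFA hearts, with 1 of 10 called lower as deposited, 6 after the GC correction, and none at 0. The cardiomyocyte markers summed to 472721 and 361048 in TAC SFA-EAA hearts, against 391006 and 409051 in TAC SFA hearts, with 0 called. The 4 atrial markers summed to 4454 and 3353 in TAC SFA-EAA hearts, against 10389 and 21485 in TAC SFA hearts, with both SFA-EAA libraries below both SFA libraries in all 4, a median log2 fold change of -3.71, 0 called as deposited and 1 called lower after the GC correction. Of the 10 smooth muscle and pericyte markers, 7 had both SFA-EAA libraries below both SFA libraries, with a median of -0.87, 0 called as deposited and 1 called higher after the correction. Their sums were 5672 and 6719.6 in TAC SFA-EAA hearts, against 5662 and 6146 in TAC SFA hearts. The part of these markers in the result was not tested.

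Among sham hearts, the diets also divided the subunit genes by GC content. In 14 genes both sham SFA-EAA libraries lay above both sham SFA libraries and in 15 both lay below, against 27.6% of all genes in each direction, and the median log2 fold change was 0.00. Limma called 0 of the 38 as deposited, and it called 0% of all genes in either direction. At an unadjusted p under 0.05, 7 members were higher and 2 lower, beside 2437 of all 16432 genes in either direction. Across the 38 genes the fold change as deposited was lower at higher GC content, with a Spearman correlation of -0.72, which was -0.06 after the correction. The 14 genes under 50% GC had a median fold change of 0.13, and the 24 genes at 50% or more had -0.16. After the correction these medians were 0.08 and 0.14. The correction removes each library's trend with GC content, so the loss of this division follows from it. The origin of the division was not tested. Ndufs7, at 59.6% GC, had 907 and 1155 in sham SFA-EAA hearts, against 2123 and 2367 in sham SFA hearts. Its fold change was -1.13 ± 0.48 as deposited and -0.49 ± 0.25 after the correction, and it did not pass either test (limma adjusted p = 0.327 and 0.514). Ndufs4, at 43.1% GC, had 2248 and 1972 in sham SFA-EAA hearts, against 1418 and 1433 in sham SFA hearts, and 0.56 ± 0.15 as deposited (adjusted p = 0.267). After the correction 0 of the 38 were called, against 0.0365% of all genes called higher and 0.00609% lower, and the median was 0.09. At an unadjusted p under 0.05, 10 members were then higher and 1 lower, beside 1743 of all 16432 genes in either direction.

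Averaged over both operations, 3 members were called higher on the SFA-EAA diet and 1 was called lower as deposited. Against 0.487% of all genes called higher and 0.724% called lower, limma called Ndufa5 (0.64 ± 0.11 on the log2 scale, adjusted p = 0.0466), Ndufa4 (0.67 ± 0.12, adjusted p = 0.0472) and Ndufs4 (0.61 ± 0.11, adjusted p = 0.0472) higher. It called Ndufa4l2 lower (-1.11 ± 0.19, adjusted p = 0.0472). Core subunits had 0.47 ± 0.10 at most (Ndufs1, adjusted p = 0.0607) and -0.81 ± 0.34 at least (Ndufs7, adjusted p = 0.196), and 0 of the 7 were called. In 3 genes, Ndufa4, Ndufb3 and Ndufb4, all 4 SFA-EAA libraries lay above all 4 SFA libraries, against 5.41% of all genes. As deposited the correlation with GC content over the 38 genes was -0.70, and after the correction, which removes such a trend, it was -0.07. With GC-corrected values limma called 12 of the 38 higher, against 2.02% of all genes, and 0 lower, against 0.986%. Among them were Ndufs1 and Ndufv1 of the core, Ndufa5, Ndufa6, Ndufs4 and Ndufs6 of the matrix arm, Ndufa3, Ndufb4, Ndufb8 and Ndufb9 of the membrane arm, and Ndufa4. Ndufs6 had 0.55 ± 0.08 (limma adjusted p = 0.00498) and Ndufa5 0.67 ± 0.10 (adjusted p = 0.00521). The 4 calls as deposited became 18 without TAC SFA-EAA replicate 1 and 0 when any 1 of the other 7 libraries was left out. The 12 calls with GC-corrected values became 17 without TAC SFA replicate 1 and 7 without its replicate 2, 2 and 6 without sham SFA-EAA replicate 1 and 2, and 0 and 7 without sham SFA replicate 1 and 2.

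**Figure D5:**
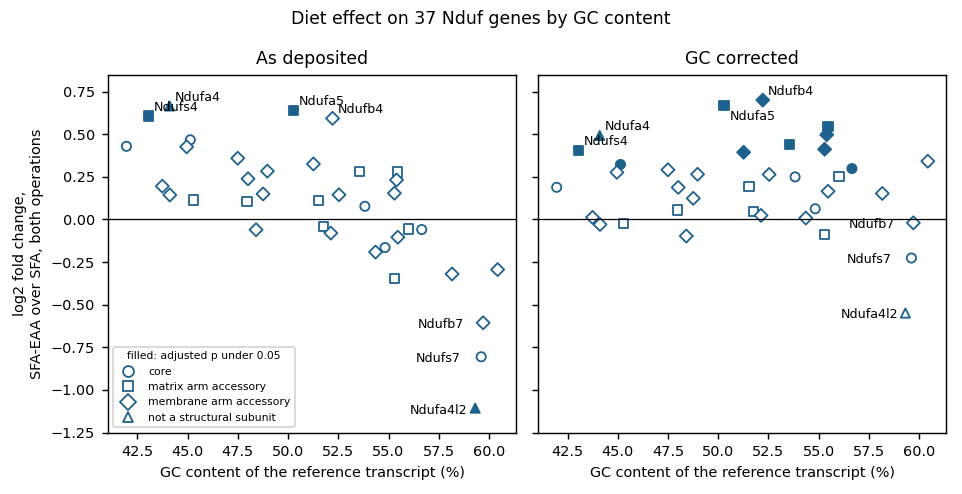
Each point is 1 of 37 genes, with the GC content of its reference transcript on the horizontal axis and the log2 fold change of SFA-EAA over SFA, averaged over both operations, on the vertical axis, as deposited on the left and GC corrected on the right. Filled points passed limma at an adjusted p under 0.05 (4 on the left, 11 on the right), and shapes give the role. The slope on the left has a rank correlation of -0.71. The correction removes such a trend, and the rank correlation on the right is -0.07.

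The pair of genes that share the family name but not the place in complex I differed in pattern. Ndufa4 (ENSMUSG00000029632, chr6:11900292-11907497, minus strand) had 5527 and 6826 in TAC SFA-EAA, 4026 and 3293 in TAC SFA, 8231 and 6917 in sham SFA-EAA, and 4739 and 5401 in sham SFA hearts. In TAC as in sham hearts both SFA-EAA libraries lay above both SFA libraries, and the TAC SFA libraries were the lowest 2 of the 8. With GC-corrected values Ndufa4 fell in TAC under SFA (-0.49 ± 0.12, limma adjusted p = 0.0274) and rose with the SFA-EAA diet in TAC hearts (0.62 ± 0.12, adjusted p = 0.0205). Ndufa4l2 (ENSMUSG00000040280, chr10:127514939-127517152, plus strand) had 50.2 and 31.8 in TAC SFA-EAA, 71.1 and 92.7 in TAC SFA, 29.6 and 36.7 in sham SFA-EAA, and 72.1 and 83.5 in sham SFA hearts. All 4 SFA-EAA libraries lay below all 4 SFA libraries, as in 4.92% of all genes, and it was the only member whose libraries overlapped between TAC and sham under SFA. Its TAC effect under SFA was 0.06 ± 0.27 and is -0.12 when TAC SFA replicate 2 is left out and -0.04 when sham SFA replicate 1 is. Its GC content is 59.3%, and its diet effect over both operations was -0.55 ± 0.14 after the correction, which did not pass (limma adjusted p = 0.0647).

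The nuclear genes of the other respiratory complexes were lower in the same libraries. Of 40 listed subunits of complexes II to V, all 40 had both TAC SFA libraries below both sham SFA libraries, against 23.1% of all genes. Their median log2 fold change was -0.45, beside 37 of 38 and -0.43 for the Nduf genes. As deposited 1 of the 40 was called lower, against 0.414% of all genes. It was Cox7a1, a heart and muscle form of a cytochrome oxidase subunit. Cox7a1 had 2118 and 1871 in TAC SFA hearts, against 3347 and 3392 in sham SFA hearts (-0.76 ± 0.14, limma adjusted p = 0.0478). With GC-corrected values all 40 were negative and 24 were called lower, against 3.11% of all genes. Under SFA-EAA 36 of 40 were negative with a median of -0.22 and 0 called, and the interaction was positive in 39 of 40 with a median of 0.26 and 0 called. In the average over diets 5 were called lower as deposited (Cox7a1, Atp5l, Sdhc, Cox7b and Cox7a2), against 0.73% of all genes. In the average over operations 7 were called higher, against 0.487%, led by Cox7b with 0.73 ± 0.10 (limma adjusted p = 0.0303). With GC-corrected values 27 of the 40 were called lower in the average over diets, against 3.67% of all genes. In the average over operations 16 were called higher with these values, against 2.02%. No difference between the lists was tested.

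The partners of the nuclear subunits within complex I were measured in the same libraries. The 7 mitochondrially encoded subunits had negative fold changes between TAC and sham under SFA in 7 of 7 genes, with 0 called and a median of -0.39, and in 3 of 7 under SFA-EAA, with 0 called and a median of 0.10. With GC-corrected values 7 of 7 were negative under SFA with a median of -0.35, and 1 of 7 under SFA-EAA with a median of 0.29, with 0 called. Their median diet effect over both operations was 0.50 as deposited and 0.025 with GC-corrected values, with 0 called. The gene mt-Nd1, which forms part of the quinone channel, had 257739 and 299405 in TAC SFA-EAA, 181691 and 133355 in TAC SFA, 339525 and 276215 in sham SFA-EAA, and 207597 and 215720.0 in sham SFA hearts. All 4 SFA-EAA libraries lay above all 4 SFA libraries, and its diet effect over both operations was 0.68 ± 0.21 as deposited and 0.30 ± 0.16 with GC-corrected values (limma adjusted p = 0.111 and 0.388). The genes mt-Nd3 and mt-Nd4l had values of 22.4 at most, and mt-Nd3 is listed at 0 in 1 library. Of 21 listed assembly factors 18 were tested, of which 16 had negative fold changes between TAC and sham under SFA with a median of -0.27 and 0 called. Tmem70, which helps to assemble the membrane arm and ATP synthase, had the smallest p-value among them, with 419 and 351 in TAC SFA hearts, against 514 and 519 in sham SFA hearts, and a fold change of -0.43 ± 0.12 (adjusted p = 0.147, and 0.0309 with GC-corrected values). Tmem70 was also the 1 assembly factor that was higher in TAC SFA-EAA than in TAC SFA hearts after the correction (0.47 ± 0.11, limma adjusted p = 0.0427).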

How the data were processed

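Libraries of left ventricle RNA were made with a stranded kit for polyadenylated RNA and run on a NextSeq 500 instrument, per the labels' protocols. The submitters' processing notes name STAR 2.5, edgeR and GRCm38. The counter, any filter, the annotation and the use of strand were not given in the sources used here. Overlapping genes and near-identical copies could therefore share reads. The deposited signal of the authors is a normalized number of reads per gene and library that is not whole, so no test for counts was run. The authors' table has no column of a sample outside the 8 libraries.

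All genes that reached 1 in 2 or more libraries were tested by limma-trend on log2(value + 1) with R 4.3.3 and limma 3.58.1, and the added 1 damps fold changes of low genes. The fit used 4 group means and 1 shared spread, two-sided tests, Benjamini-Hochberg adjustment over all 16432 genes per comparison (7 in all), and 0.05 as threshold. The GC correction subtracted from each library a loess curve (span 0.3, fitted to genes with a mean of at least 5) of its deviations on the GC content of each gene's principal GENCODE transcript, or its longest basic one; 100% of members and 99.8% of tested genes had a value. Scripts were tested on simulated data. Python 3.11.15 with numpy 2.4.6 and pandas 2.3.3 wrote the tables, and matplotlib 3.10.9 drew the plots.

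The members, the gene lists (respiratory complexes, assembly factors, regulators and cell type markers) and the tests were chosen with earlier results of these data known. Named are core subunits, Ndufa4 and Ndufa4l2, every member called as deposited, up to 5 members per comparison with the smallest p-values and 3 with the largest fold changes, and the highest and lowest per length; Ndufa10, Ndufb11, the named genes of other lists and the genes of the GC-corrected calls were added after their values were seen. The values of 1 member are not reported here, and it is not drawn; it stays in the fits and in the counts over members. Same-numbered libraries did not deviate together (correlations of -0.19 to 0.03 over 12221 genes), so replicate numbers were not used as pairs. The alternatives were a pseudocount of 0.25, no filter or a mean of at least 5, quantile, median-of-ratios and nuclear-gene scaling, library weights, fits to the libraries compared, a replicate block, the GC correction, and leaving out libraries. The GC correction by the longest transcript, and leaving out libraries after the GC correction, were chosen after seeing the data.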

Additional observations from a re-analysis of the deposited data

Results flagged for a closer look

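Ndufs3, a core subunit of the quinone module, was flagged because its libraries moved in opposite directions with the diet in the 2 operations. Its mean was 1611 in TAC SFA-EAA hearts, against 1321 in TAC SFA hearts, with both SFA-EAA libraries above both SFA libraries, and 1628 in sham SFA-EAA hearts, against 1780.2 in sham SFA hearts, with both below. Ndufab1, the acyl carrier protein, did the same, with means of 1233 in TAC SFA-EAA hearts, against 1008 in TAC SFA hearts, and 1375 in sham SFA-EAA hearts, against 1421 in sham SFA hearts. The opposite directions themselves were read from the libraries as deposited and were not tested. Of all genes, 21.7% had both SFA-EAA libraries above both SFA libraries in TAC hearts, and 27.6% had both below in sham hearts. The share of all genes that did both was not counted, so the pattern is not shown to be particular to these genes. The interaction of diet and operation did not pass for either gene. It was 0.41 ± 0.16 for Ndufs3 (limma adjusted p = 0.878) and 0.32 ± 0.20 for Ndufab1 (adjusted p = 0.909).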

How the results depend on the processing

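As deposited, limma called 0 members between TAC and sham under SFA, 0 under SFA-EAA, 0 for the diet in sham hearts, 0 for the diet in TAC hearts, 0 for the interaction, 1 in the average over diets and 4 in the average over operations. The GC correction gave 20 for TAC under SFA, 13 for the diet in TAC hearts, 24 in the average over diets and 12 in the average over operations, and the correction by the longest transcript 19, 10, 21 and 11 in the same order. Of all genes tested, limma called 205, 8, 347 and 199 as deposited in that order. With the GC correction it called 929, 415, 1121 and 494, and by the longest transcript 854, 344, 1041 and 495. The number of all genes called is not given for the settings that follow, or for the fits above without a library. Member counts under those settings are therefore not shown to be particular to the members. Library weights gave 12 for TAC under SFA, 3 for the diet in sham hearts, 2 in the average over diets and 8 in the average over operations. Testing only genes with a mean of at least 5 gave 1 for TAC under SFA, 1 for the diet in TAC hearts, 3 in the average over diets and 8 in the average over operations. Median-of-ratios scaling gave 2 and scaling to nuclear-encoded genes 0 in the average over diets. Quantile normalization and no filter on low values gave 0 in both averages, and a pseudocount of 0.25 gave 0 in the average over operations. The replicate block, whose numbers do not pair the libraries, gave 0 in both averages, and with the GC correction it gave 16 for TAC under SFA, 10 for the diet in TAC hearts, 20 in the average over diets and 10 in the average over operations. Leaving out both libraries with the highest Myl7 gave 0 in both averages. Leaving out each library in turn gave 0 to 5 for TAC under SFA, 0 to 2 for the diet in sham hearts, 0 to 12 for the diet in TAC hearts, 0 to 17 in the average over diets and 0 to 18 in the average over operations. With GC-corrected values it gave 0 to 29, 0, 0 to 15, 3 to 31 and 0 to 17 in the same order, and 0 to 1 for the interaction. As deposited, the median log2 fold change with 1 library left out ran from -0.35 to 0.046 for TAC under SFA-EAA, from 0.079 to 0.45 for the diet in TAC hearts and from 0.068 to 0.49 for the interaction. Over all alternatives 138 of 144 medians moved by less than 0.165, the SD between replicates of the mean over members. That SD is pooled over the groups, and the TAC SFA-EAA replicates lay farthest apart, with means of 10.66 and 10.23 on the log2 scale. It exceeds the size of the median for TAC under SFA-EAA (-0.14), the diet in sham hearts (0.003) and the average over operations (0.14). A smaller move therefore does not show that these medians held. The sign turned for Ndufa4l2 in TAC under SFA, which ran from -0.12 to 0.25 over single libraries left out and was -0.23 without both Myl7-high libraries. The interaction turned for Ndufs7, which ran from -0.34 to 1.63, and for Ndufa13, which ran from -0.18 to 1.14, each time without TAC SFA-EAA replicate 1. These were 5 of 1031 values of named members, of which 93 were newly past the threshold and 62 no longer past it. The cause was not tested for any of these changes. A library left alone in its group is assumed to vary like the other groups, and 2 libraries per group limit every test here.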

Other observations

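No listed regulator of nuclear and mitochondrial respiratory genes passed the test in any of the 7 comparisons. Of 15 listed regulators, 12 had negative log2 fold changes between TAC and sham hearts under SFA with a median of -0.12, and 8 had negative ones under SFA-EAA with a median of -0.03, with 0 called by limma as deposited or with GC-corrected values. Ppargc1a, a coactivator that drives mitochondrial gene expression, had 474 and 762 in TAC SFA-EAA, 479 and 406 in TAC SFA, 760.1 and 756 in sham SFA-EAA, and 473 and 482 in sham SFA hearts. Of the SFA-EAA libraries, TAC replicate 2 and the sham pair lay above all 4 SFA libraries and TAC replicate 1 did not, and the gene had a diet effect over both operations of 0.56 ± 0.14 as deposited and 0.30 ± 0.08 with GC-corrected values (limma adjusted p = 0.0768 and 0.0709). Esrra, a nuclear receptor that binds many respiratory chain promoters, had 635 and 206 in TAC SFA-EAA, 599 and 611 in TAC SFA, 304 and 409 in sham SFA-EAA, and 747 and 835 in sham SFA hearts. Its diet effect among sham hearts was -1.16 ± 0.41 as deposited and -0.33 ± 0.15 with GC-corrected values, and neither passed (adjusted p = 0.278 and 0.471).

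Among markers of the remaining cell types, 10 macrophage markers were all positive between TAC and sham under SFA, with a median of 0.57, and under SFA-EAA, with a median of 0.72, and 0 were called as deposited in either, while with GC-corrected values 1 was called higher under SFA and 0 under SFA-EAA. Averaged over both diets 2 of the 10 were called higher as deposited and 7 with GC-corrected values. The 10 endothelial markers had medians of -0.10 under SFA and 0.04 under SFA-EAA with 0 called as deposited or GC corrected. Of the 10 smooth muscle and pericyte markers 1 was called lower in TAC under SFA and 0 under SFA-EAA, as deposited and GC corrected, with medians of 0.38 and -0.37 as deposited. No marker of these 3 lists was at 0 in any library.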
